A study of Mus musculus with 9 samples.

Results

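The alcohol dehydrogenase (Adh), aldehyde dehydrogenase (Aldh) and aldo-keto reductase (Akr) genes were followed in mouse liver after a high-fat diet. The members are all genes whose symbol in the array annotation begins with Adh, Aldh or Akr and a digit, read from probe sets paired with exactly 1 symbol. They numbered 42 of the 17514 genes tested, namely 7 Adh genes (among them the pseudogene Adh6-ps1), 20 Aldh genes and 15 Akr genes, and were read by 70 probe sets. Total RNA of liver from c57Bl/6 mice was hybridised to 9 Affymetrix GeneChip arrays, 4 labelled control and 5 labelled HFD. The HFD held 21% fat, which supplied 42% of its calories, and all animals ate chow before the study. The control diet, the sex and age of the mice, the length of feeding and any batch are not described in the labels. Nor do they state whether the arrays came from different mice, and p-values therefore measure the spread between arrays alone, part or all of which may be technical.

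Enzymes of these families act on alcohols and carbonyls. Alcohol dehydrogenases oxidise ethanol, retinol and other alcohols to aldehydes, and aldehyde dehydrogenases oxidise aldehydes on to acids. Aldo-keto reductases mostly run the other way and reduce aldehydes, ketones and ketosteroids with NADPH. Liver carries much of this traffic, including the clearance of ethanol and of lipid-derived aldehydes, the making of retinoic acid and bile acids and the inactivation of steroids.

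Each deposited value is a log2 difference from a baseline, which the series' design text gives as the median of that probe set over the samples. This cannot be the median of these 9 arrays alone. For Aldh3a2, HFD replicate 5 is the middle of the 9 arrays but stands at 0.28, not at the baseline, and control replicate 1 mirrors it at -0.28. Which other samples entered the baseline is not known here. Such values show how the groups differ but not how abundant a transcript is. The labelled tissue could therefore not be checked against the level of liver markers. Differences below are HFD minus control on this log2 scale, with the standard error (SE) of a limma fit over all 17514 genes, and adjusted p-values are Benjamini-Hochberg values over all of them, with a threshold of 0.05. Array means are given with the SD (n = 4 control and n = 5 HFD). Over all probe sets the HFD arrays of replicates 5 and 3 were the most spread out of the 9 arrays, with SDs of 0.335 and 0.267 against 0.221 to 0.245 for the others. HFD replicate 5 was also the array farthest from the median of its group in 22 of the 42 members. Among the controls, replicate 3 was the farthest most often, in 18 of the 42.

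Of the 42 genes 3 passed the threshold. Aldh3a2 and Aldh2 rose with HFD and Akr1c19 fell. Over all genes 5.24% passed (3.37% higher and 1.87% lower), and the 3 members are 7.14% of the families, a share near that background. The 2 groups of arrays did not overlap in 9 members, 21.4% of the families against 9.82% of all genes. All HFD arrays lay above all controls in 4 of these, which were Aldh genes (5.62% of all genes did so), and below them in 5, which were Adh and Akr1c genes (4.2% of all genes). The difference was under 0.2 in size in 24 of the 42 members, as it was in 11868 of the 17514 genes, and 17 members had a positive difference (40.5%, against 46.2% of all genes).

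**Figure D1:**
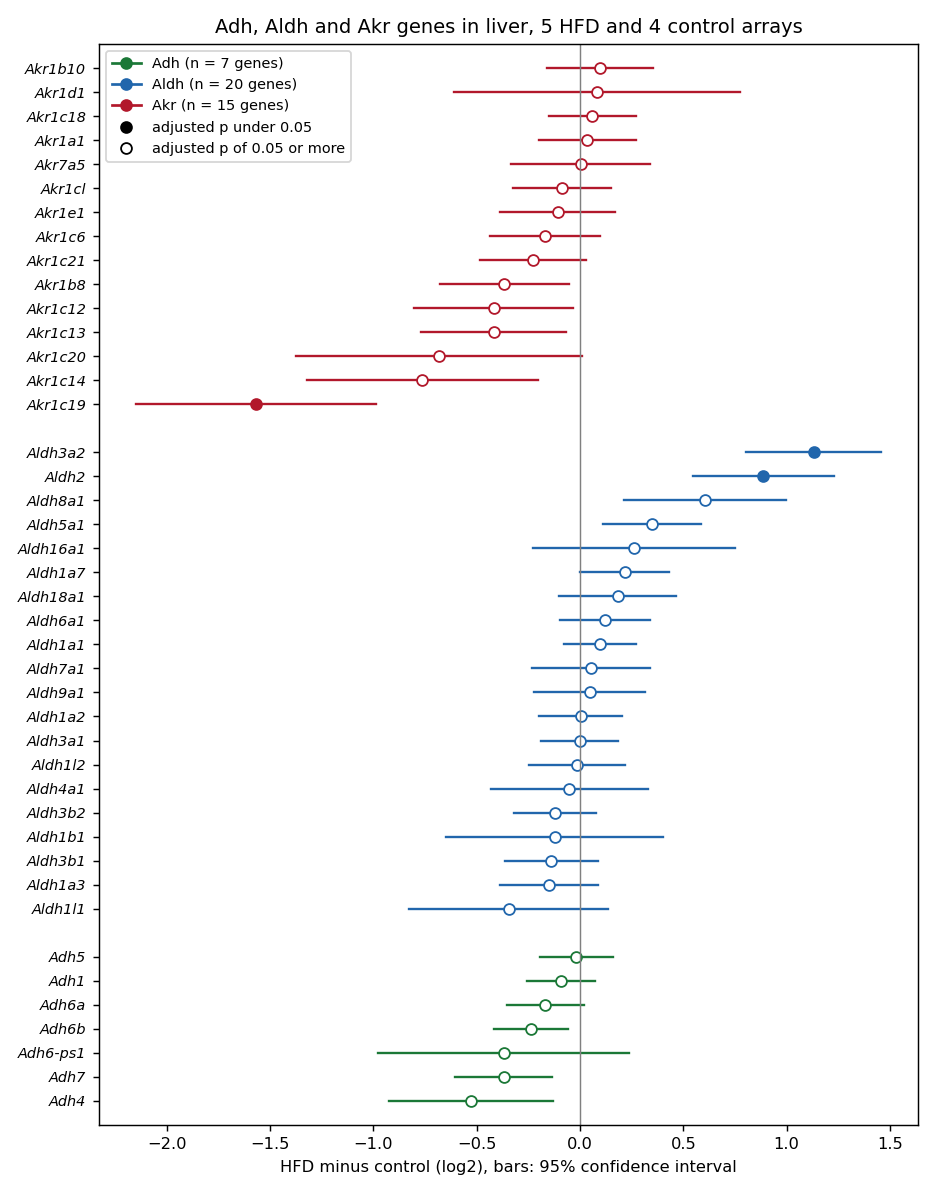
HFD minus control on the log2 scale for each of the 42 genes, with the 95% confidence interval of the limma fit (5 HFD and 4 control arrays), grouped by family. Filled points are the 3 genes with an adjusted p under 0.05, Aldh3a2 and Aldh2 to the right of 0 and Akr1c19 to the left, and all 7 Adh points lie at or left of 0.

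Among the aldehyde dehydrogenases, Aldh3a2 showed the largest rise. It encodes the fatty aldehyde dehydrogenase of the endoplasmic reticulum and peroxisomes, which oxidises long-chain aldehydes from fatty alcohols, ether lipids and sphingolipids. The control arrays stood at -0.28, -0.74, -0.85 and -0.34 (mean -0.55 ± 0.29) and the HFD arrays at 0.61, 0.59, 0.54, 0.85 and 0.28 (mean 0.58 ± 0.20). All 5 HFD arrays were above all 4 control arrays, and HFD replicate 5 was the lowest of its group. Aldh3a2 rose by 1.13 ± 0.15 (SE), which is 2.19-fold, with a limma adjusted p of 0.00309. It is read by 1 probe set.

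Aldh2, the mitochondrial enzyme that clears acetaldehyde and lipid peroxidation aldehydes, rose as well. Its values were -0.44, -0.51, -0.22 and -0.22 in control (mean -0.35 ± 0.15) and 0.22, 0.41, 0.96, 0.33 and 0.78 in HFD (mean 0.54 ± 0.31). The groups did not overlap, and HFD replicates 3 and 5 were the highest arrays. The rise was 0.89 ± 0.15 (1.85-fold, limma adjusted p = 0.0105). The size depended on the probe set. All 5 probe sets of Aldh2 had positive differences, from 0.19 to 0.89, but only the most variable, which stands for the gene, passed on its own. With the 5 averaged the rise was 0.41 (limma adjusted p = 0.0178, in a fit where 5.17% of all genes passed). With the probe set that varied most within the groups it was 0.50 and did not pass (limma adjusted p = 0.314).

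The next members of the Aldh family by p-value did not pass, although 2 of them did not overlap between the groups. Aldh8a1 encodes an aldehyde dehydrogenase that acts on an intermediate of tryptophan breakdown and on retinaldehyde. Control arrays lay close together at -0.03, -0.01, -0.08 and -0.06, and HFD arrays at 0.86, 0.89, 0.27, 0.77 and 0.01. HFD replicates 1, 2 and 4 were high, replicate 3 lay between and replicate 5 sat just above the controls. The difference was 0.61 ± 0.18 (limma adjusted p = 0.0810). It passed without HFD replicate 5 (0.74, limma adjusted p = 0.0150). Its other probe set had a smaller and less variable difference of 0.40 ± 0.07, which passed in a limma fit of every probe set on its own (adjusted p = 0.0159).

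Aldh5a1, the succinic semialdehyde dehydrogenase of GABA breakdown, stood at -0.01, -0.09, -0.34 and -0.06 in control and at 0.28, 0.26, 0.44, 0.11 and 0.01 in HFD. The groups did not overlap, though HFD replicate 5 came close to the highest control array. The difference was 0.35 ± 0.11 (limma adjusted p = 0.0988). Aldh1a7, a close rodent relative of Aldh1a1, differed by 0.22 ± 0.10 (limma adjusted p = 0.258), and HFD replicate 2 lay among the controls. Aldh1l1, which oxidises 10-formyltetrahydrofolate in the folate pathway, differed by -0.35 ± 0.22 (limma adjusted p = 0.441). Its values ran from -0.18 to 0.47 in control and from -0.78 to 0.36 in HFD, and without HFD replicate 3 the difference was -0.18.

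None of the other Aldh genes passed. The genes of retinoic acid synthesis, Aldh1a1, Aldh1a2 and Aldh1a3, had differences from -0.15 to 0.10. The mitochondrial and cytosolic enzymes of amino acid metabolism other than Aldh5a1, which are Aldh4a1 (proline breakdown), Aldh6a1 (valine breakdown), Aldh7a1 (lysine breakdown), Aldh9a1 (carnitine synthesis) and Aldh18a1 (proline synthesis), ran from -0.05 to 0.18. The highest of these, Aldh18a1, depended on the probe set. Its 5 probe sets ran from -0.24 to 0.18, and 3 of them were negative. The relatives of Aldh3a2 in subfamily 3, which are Aldh3a1, its neighbour on the chromosome, Aldh3b1 and Aldh3b2, ran from -0.14 to -0.00, and none passed. The remaining members Aldh1b1, Aldh1l2 and Aldh16a1 ran from -0.12 to 0.26. In the family as a whole 12 of 20 genes had a positive difference, and the median was 0.05 against -0.02 for all genes.

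**Figure D2:**
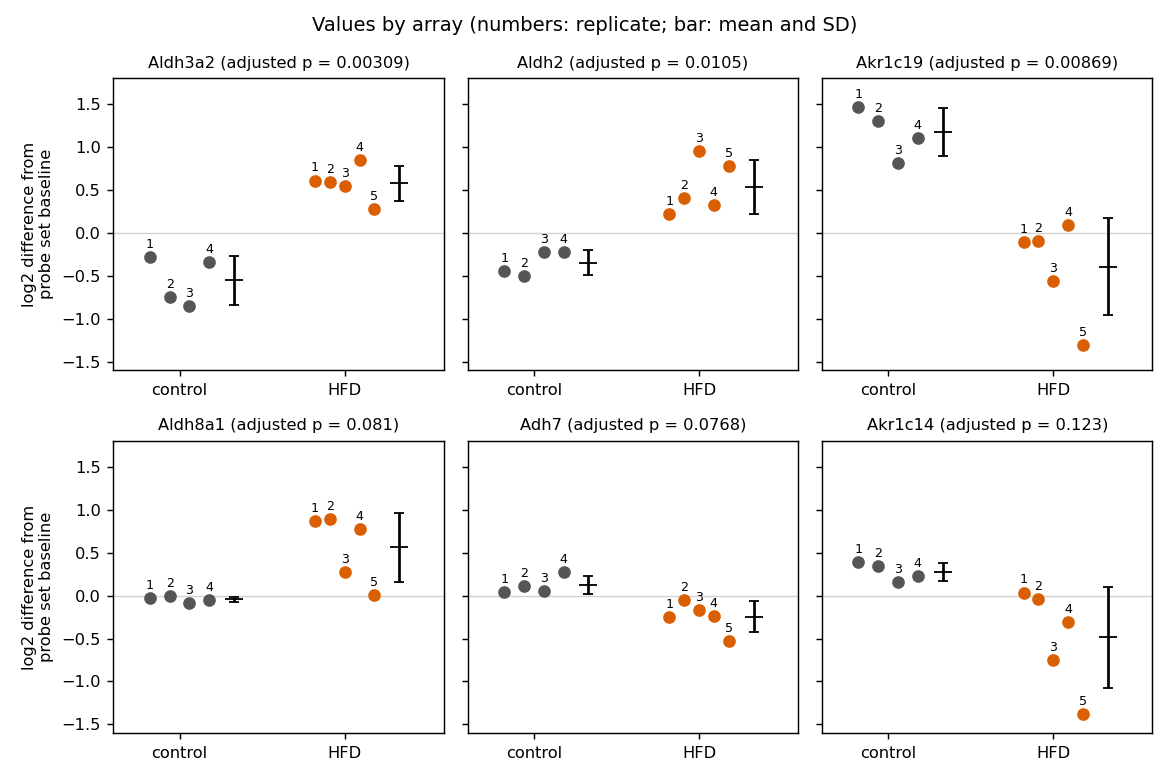
Values of 6 members on each array, as log2 differences from the baseline of the probe set, for 4 control arrays (grey) and 5 HFD arrays (orange), with the replicate number beside each point and the mean and SD as a bar. The groups do not overlap in any of the 6, the rise of Aldh3a2 and Aldh2 and the fall of Akr1c19 are past the threshold, and HFD replicate 5 is the lowest HFD array in 5 of the 6 panels.

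All 7 Adh genes had negative differences, from -0.53 to -0.02 with a median of -0.24, and none passed the threshold. With probe sets averaged, with array weights, without control replicate 1, without HFD replicate 5 or without HFD replicates 3 and 5 together, 6 of the 7 were negative and the difference of Adh5 turned positive. At an unadjusted limma p under 0.05 there were 3 Adh genes, all lower, among 13 of the 42 members, against 19.1% of all genes. Adh4, a class II alcohol dehydrogenase of liver that also acts on retinol, had the largest difference, -0.53 ± 0.18 (limma adjusted p = 0.131). Its control arrays stood at 0.41, 0.56, -0.03 and 0.25 and its HFD arrays at 0.19, 0.03, -0.44, -0.29 and -0.63, so that HFD replicates 1 and 2 lay among the controls. Adh7, the class IV retinol-oxidising enzyme best known from epithelia, stood at 0.05, 0.12, 0.05 and 0.28 in control and at -0.25, -0.05, -0.17, -0.24 and -0.53 in HFD without overlap. Its difference was -0.37 ± 0.11 (limma adjusted p = 0.0768), and it passed in limma with its 2 probe sets averaged (-0.28, adjusted p = 0.0405) or after a further quantile normalization (-0.36, adjusted p = 0.0495).

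Adh6b and Adh6a, class V genes of little known function, were also lower in every HFD array than in every control array. Adh6b ranged from 0.04 to 0.11 in control and from -0.27 to -0.04 in HFD, with a difference of -0.24 ± 0.08 (limma adjusted p = 0.130). Adh6a ranged from 0.01 to 0.29 in control and from -0.17 to -0.01 in HFD, with a difference of -0.17 ± 0.08 (limma adjusted p = 0.321). Without control replicate 2, the highest array, the difference of Adh6a was -0.10. Adh1, the class I enzyme that carries most ethanol oxidation in liver, and Adh5, which oxidises glutathione-bound formaldehyde, had differences of -0.09 and -0.02 with 95% confidence intervals from -0.26 to 0.07 and from -0.20 to 0.16. The second probe set of Adh5 had the opposite sign (0.07). The 7 genes follow one another without another gene between them on chromosome 3 in RefSeq's GRCm38.p6 annotation, counting protein-coding genes and transcribed pseudogenes.

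Akr1c19 fell most of all members. It belongs to the Akr1c subfamily of hydroxysteroid dehydrogenases, which reduce and oxidise steroid hormones, bile acid intermediates and xenobiotic carbonyls. The control arrays stood at 1.46, 1.31, 0.81 and 1.11 (mean 1.17 ± 0.28) and the HFD arrays at -0.11, -0.09, -0.56, 0.09 and -1.31 (mean -0.40 ± 0.56). The lowest control array stood well above the highest HFD array, and HFD replicate 5 was the lowest of all. Akr1c19 fell by 1.57 ± 0.26 (2.96-fold, limma adjusted p = 0.00869). It is read by 1 probe set, and whether that probe set also binds transcripts of other Akr1c genes was not tested. Without HFD replicates 3 and 5 together, a choice made after seeing the data, the difference was -1.21 (limma adjusted p = 0.00629).

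The Akr1c genes measured here, 8 in all, lie on chromosome 13, and 7 of them had negative differences, with a median of -0.42 over the 8. Akr1c14, a 3alpha-hydroxysteroid dehydrogenase, differed by -0.76 ± 0.25 (limma adjusted p = 0.123), with values of 0.39, 0.34, 0.16 and 0.22 in control and 0.04, -0.04, -0.75, -0.30 and -1.38 in HFD. The groups of Akr1c14 did not overlap, but the HFD arrays spread over a range much wider than the controls. Akr1c13 and Akr1c12, the nearest measured Akr1c genes on either side of Akr1c19, differed by -0.42 ± 0.16 and -0.42 ± 0.17 (limma adjusted p = 0.177 and 0.221). In both, HFD replicate 1 lay among the controls and HFD replicates 3 and 5 were the lowest arrays, at -0.44 and -0.78 for Akr1c13 and at -0.56 and -0.74 for Akr1c12.

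Akr1c20 was read by 2 probe sets of opposite sign. The probe set that stands for it differed by -0.68 ± 0.31 (limma adjusted p = 0.268), with HFD replicates 3 and 5 at -1.19 and -1.29 and the other HFD arrays between -0.13 and 0.20, whereas the other probe set differed by 0.12 ± 0.12. Akr1c6, a 17beta-hydroxysteroid dehydrogenase, and Akr1c21, a 17alpha-hydroxysteroid dehydrogenase, had smaller negative differences, from -0.23 to -0.17. Akr1c18, which inactivates progesterone, was the exception, with a difference of 0.06.

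In 6 of the 8 Akr1c genes HFD replicates 3 and 5 were the 2 lowest of all 9 arrays. The mean of the 8 genes was 0.42, 0.24, 0.18 and 0.18 in the control arrays and 0.03, 0.03, -0.54, -0.10 and -0.75 in the HFD arrays. Without HFD replicates 3 and 5 the differences of Akr1c14, Akr1c13, Akr1c12 and Akr1c20 became -0.38, -0.19, -0.16 and -0.18, and that of Akr1c6 became 0.00. The Kupffer cell markers described further on had means of -0.37, -0.75, -0.61, 0.14 and -1.39 in HFD replicates 1 to 5, and the endothelial markers of -0.08, -1.05, -0.67, 0.20 and -1.14. In both lists HFD replicate 5 was lowest and replicate 2 came next. The Akr1c mean was lowest in HFD replicate 5, next in replicate 3 and higher in replicates 1, 2 and 4. The mean of 12 measured genes of bile acid and steroid metabolism outside the families was also lowest in HFD replicates 5 and 3 (-0.53 and -0.36, against -0.12 to 0.09 in the other HFD arrays and 0.13 to 0.25 in control). Whether the cell types, the bile acid genes or any other difference between these arrays bears on the Akr1c genes was not tested.

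**Figure D3:**
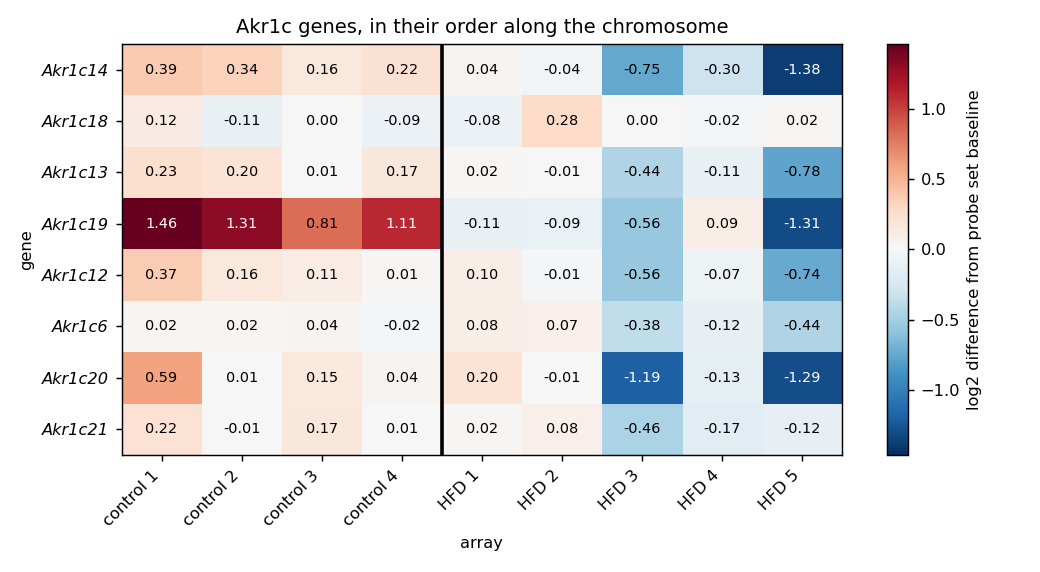
Values of the 8 Akr1c genes (rows, in their order along the chromosome) on each of the 9 arrays (columns, control left of the line and HFD right of it), as log2 differences from the baseline of the probe set, red above and blue below it. The fall of Akr1c19 is seen in all 5 HFD arrays, and the lowest values of most other genes stand in HFD replicates 3 and 5.

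Windows from 250 bases before to 50 after the gene start were available from RefSeq (GRCm38.p6) for 33 of the 42 genes, 36 windows in all, and those of Akr1c19 and of the nearest measured Akr1c genes are shown because Akr1c19 had the largest fall of all members. The windows of 7 Akr1c genes were poor in G and C, with a median of 40.3% against 52.7% over all 32851 windows, and held 0 to 5 CpG dinucleotides. In the Akr1c19 window, chr13:4233490-4233789 on the + strand, capitals mark a match to TGACNNNGC, the core of the antioxidant response element, on the reverse strand. The match lies in the 50 bases after the gene start, not before it. Both strands were searched. Akr1c19 was the only Akr1c gene and the only member past the threshold, of the 2 with a window, that held this motif, which 5 of the 36 member windows and 12.4% of all windows contain. The DR1 direct repeat and the inverted repeat with 1 base between, pairs of the AGGTCA element bound by nuclear receptors, were found in 0 of the member windows and in 0.0396% and 0.00913% of all windows.
Akr1c19: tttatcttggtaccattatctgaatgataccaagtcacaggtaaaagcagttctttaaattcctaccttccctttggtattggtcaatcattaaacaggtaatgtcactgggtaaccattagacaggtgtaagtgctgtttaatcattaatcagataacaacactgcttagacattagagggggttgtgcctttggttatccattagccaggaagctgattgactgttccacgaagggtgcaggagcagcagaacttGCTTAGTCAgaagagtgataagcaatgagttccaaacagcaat

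The windows of Akr1c13 (chr13:4190937-4191236, + strand) and Akr1c12 (chr13:4279350-4279649, - strand) were alike. They had 93.4% identity over their alignment, against 45.4% to 58.8% in the other 20 pairs of Akr1c windows, and the 2 values nearest to theirs were those of Akr1c19 with Akr1c13 (58.8%) and with Akr1c12 (56.7%). Capitals mark the 16 bases in each that are not identical in the alignment of the 2 windows.
Akr1c13: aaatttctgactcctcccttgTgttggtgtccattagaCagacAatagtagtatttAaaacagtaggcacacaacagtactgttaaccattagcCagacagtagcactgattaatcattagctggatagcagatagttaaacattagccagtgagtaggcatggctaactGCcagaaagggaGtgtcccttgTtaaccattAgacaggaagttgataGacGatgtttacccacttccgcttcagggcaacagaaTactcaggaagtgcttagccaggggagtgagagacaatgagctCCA
Akr1c12: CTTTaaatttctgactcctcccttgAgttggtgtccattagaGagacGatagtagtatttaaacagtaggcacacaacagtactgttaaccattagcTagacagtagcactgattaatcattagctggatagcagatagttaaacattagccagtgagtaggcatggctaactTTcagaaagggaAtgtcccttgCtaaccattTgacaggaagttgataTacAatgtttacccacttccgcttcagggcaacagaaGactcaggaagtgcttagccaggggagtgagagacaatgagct

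A probe set that the annotation gives to both Akr1c12 and Akr1c13, and that is therefore not counted in either, differed by -0.54 ± 0.20 (limma over all 41782 probe sets, adjusted p = 0.209), again with HFD replicates 3 and 5 lowest at -0.56 and -1.06. Whether the probe sets given to Akr1c12 or Akr1c13 alone also bind transcripts of the other gene was not tested. Against the Akr1c windows, that of Aldh3a2, chr11:61267137-61267436 on the - strand, held 61.7% G and C with 21 CpG dinucleotides and none of the 3 motifs.
Aldh3a2: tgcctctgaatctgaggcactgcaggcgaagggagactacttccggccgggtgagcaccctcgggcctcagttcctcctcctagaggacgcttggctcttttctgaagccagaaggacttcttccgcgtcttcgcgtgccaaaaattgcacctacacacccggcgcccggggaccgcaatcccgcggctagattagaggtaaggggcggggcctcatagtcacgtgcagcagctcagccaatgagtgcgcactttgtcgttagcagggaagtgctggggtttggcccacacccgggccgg

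Outside the Akr1c genes no aldo-keto reductase passed, and 1, Akr1b8, had an unadjusted limma p under 0.05. Akr1d1, the 5beta-reductase of bile acid synthesis, differed by 0.08 ± 0.31 (limma adjusted p = 0.923). Its HFD values were 0.49, 0.39, -0.17, 0.61 and -1.05 and its control values 0.17, 0.31, -0.34 and -0.26, so that HFD replicates 1, 2 and 4 were above all controls and replicate 5 far below them. Akr1b8, an aldose reductase-like enzyme, differed by -0.37 ± 0.14 (limma adjusted p = 0.184), with controls from -0.01 to 0.44 and HFD arrays from -0.47 to 0.19. Akr1a1, the aldehyde reductase that also serves ascorbate synthesis in mice, Akr1b10, Akr1cl and Akr1e1 ran from -0.11 to 0.10. Probe sets differed in sign for Akr1b10 (from -0.22 to 0.10) and Akr1a1 (from -0.04 to 0.19), and none of them passed.

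Akr7a5, a reductase of succinic semialdehyde and other small aldehydes, depended on the probe set. The most variable of its 3 probe sets, which stands for the gene, differed by 0.00 ± 0.15. The other probe sets differed by 0.31 ± 0.07 and 0.34 ± 0.08, and both passed in the limma fit of every probe set on its own (adjusted p = 0.0411 and 0.0442). In both, all 5 HFD arrays were above all 4 control arrays. In that fit 4% of all probe sets passed, against 6 of the 70 probe sets of the families, which belong to Aldh3a2, Aldh2, Aldh8a1, Akr7a5 and Akr1c19. Of the 16 members with several probe sets, 11 had the same sign in all of them and 5 did not.

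**Figure D4:**
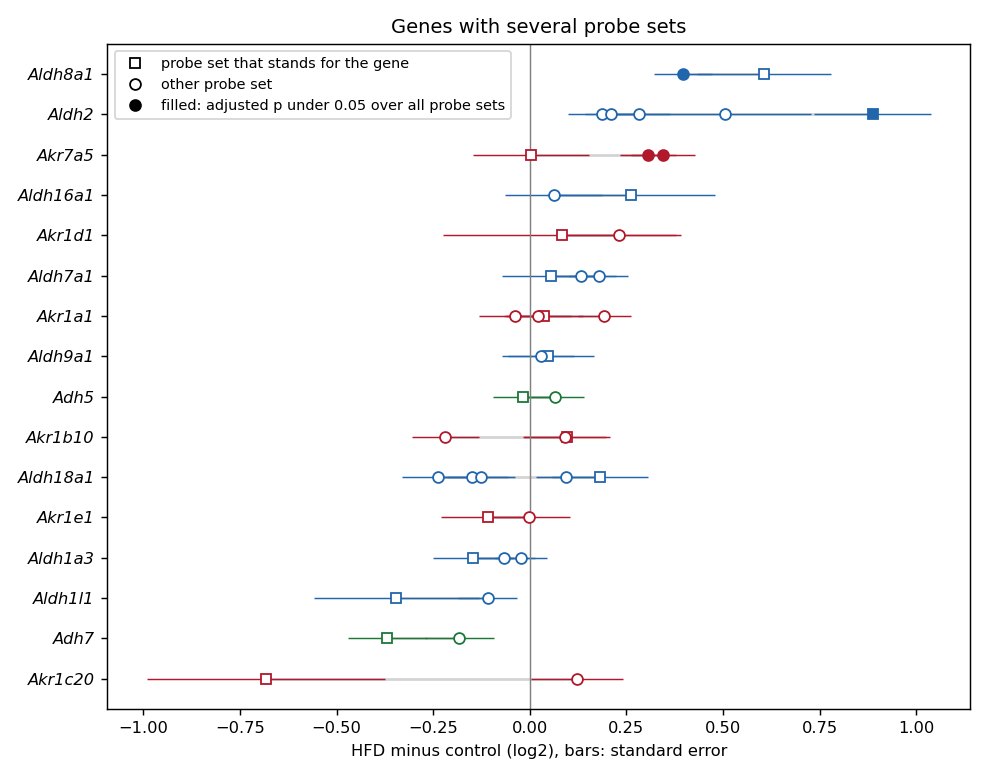
HFD minus control on the log2 scale for every probe set of the 16 genes with several, with the SE as a bar, squares for the probe set that stands for the gene and filled symbols for an adjusted p under 0.05 over all probe sets. The 5 probe sets of Aldh2 all lie right of 0 with only the outermost filled, and the filled probe sets of Akr7a5 and Aldh8a1 are not those that stand for the gene.

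Other enzymes that make or use the same substrates were taken from lists. Of 29 measured enzymes of alcohol, aldehyde and carbonyl metabolism outside the families 4 rose and 1 fell, with a median difference of 0.02. Over all genes 3.37% rose and 1.87% fell. Rdh11, a retinaldehyde reductase, fell by 1.93 ± 0.17 (limma adjusted p = 0.000290). Khk, the kinase of fructose breakdown, rose by 0.71 ± 0.11, Lrat, which esterifies retinol, by 0.71 ± 0.17, Dcxr, an L-xylulose reductase, by 0.33 ± 0.08, and Rdh7, a retinol dehydrogenase, by 0.30 ± 0.07. Cyp2e1 and Cat, which oxidise ethanol beside the alcohol dehydrogenases, had differences of 0.08 ± 0.07 and -0.02 ± 0.13.

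A list of 11 measured genes around fatty alcohols and fatty aldehydes, the substrates of Aldh3a2 and their precursors, also holds Ephx1, Ephx2 and Fmo5, which act on epoxides and other lipids. In it none rose and 1 fell, Hacl1, a peroxisomal lyase that releases fatty aldehydes (-1.08 ± 0.25, limma adjusted p = 0.0329). The median difference of the 11 was -0.21. For this list and the 2 that follow, the shares over all genes are again 3.37% higher and 1.87% lower. In the list of 12 measured bile acid and steroid genes, Cyp7a1, which starts the main route to bile acids, fell by 1.63 ± 0.30, Cyp7b1, an oxysterol hydroxylase, fell by 1.90 ± 0.41 and none rose, with a median of -0.05. Of 14 nuclear receptors and other factors known to act on members, a list that also holds Keap1, the adaptor that targets the Nfe2l2 protein for degradation, Ppara (1.34 ± 0.27) and Pparg (0.82 ± 0.16) rose and Hnf4a (-0.91 ± 0.19) fell, while Nfe2l2, which encodes the factor that binds the antioxidant response element, differed by 0.99 ± 0.28 and did not pass (limma adjusted p = 0.0726). Some list genes have several probe sets, such as Ppara (3), Hnf4a (4) and Cyp7b1 (3), and only the most variable was read. Whether their other probe sets behave alike was not tested.

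Markers of some other liver cells differed between the groups. The median difference was -1.43 for Kupffer cell, -0.82 for endothelial and -0.18 for neutrophil markers. It was near 0 for stellate cell (-0.01), biliary (0.00) and adipose (0.08) markers. Beside the counts that follow, 3.37% of all genes rose and 1.87% fell. Of 15 Kupffer cell markers 11 fell, and their mean ranged from 0.17 to 1.34 in control and from -1.39 to 0.14 in HFD. Of 13 endothelial markers 3 fell (mean from 0.14 to 0.70 in control and from -1.14 to 0.20 in HFD). Of 8 neutrophil markers 1 fell, and of 13 stellate cell markers 2 rose and 1 fell. Of 7 adipose and 6 biliary markers 1 each rose, Cidec (2.25 ± 0.38) and Wfdc2 (2.30 ± 0.27). Despite the medians near 0, adipose means (control -0.57 to 0.21, HFD 0.37 to 0.57) did not overlap between the groups. Nor did biliary means (control -0.33 to -0.11, HFD 0.02 to 0.34). Neutrophil means did not overlap either (control 0.05 to 0.31, HFD -0.90 to -0.08). Of 9 hepatocyte markers 1 rose, with a median difference of 0.01. Since values are centred, none of these markers can be read as present or at 0. In RNA of bulk liver, fewer cells of a type and less RNA per cell cannot be told apart, and the part of these markers in the differences of the Adh, Aldh and Akr genes was not tested.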

How the data were processed

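The authors used RMA and quantile normalization and then centred every probe set on the median of the samples, per the series' design text. RMA also stands in the submitters' processing notes, with no version. The deposited values were read as log2 differences from that baseline, since RMA returns log2 values, although the log base is not given in the sources used here. Centring removes levels, so that no filter on low signal was possible and dim probe sets stayed in.

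From 41842 probe sets, 60 controls were removed. The annotation gave 32801 probe sets 1 symbol, 862 several and 8119 none. Each of 17514 genes was read from its probe set with the largest SD over all 9 arrays, a choice that favours larger differences. The groups were fitted with limma 3.58.1 (lmFit, eBayes, two-sided) under R 4.3.3, and p-values were adjusted by Benjamini-Hochberg. The annotation's Entrez IDs matched all 42 members to RefSeq's GRCm38.p6 table. Replicates were numbered in order of deposition, which pairs none. Precision is limited by the number of arrays. The HFD fit was tested on simulated data in which 200 of 17514 genes were changed. It found 40.4% of log2 shifts of 0.5, 94.5% of shifts of 1 and 99.4% of shifts of 2. The simulated noise was independent between genes and equally wide on every array. The real arrays differ in spread (SD from 0.221 to 0.335 over all probe sets), so these shares may not hold for them. Windows were aligned with Biopython 1.88.

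The members and lists were chosen with earlier results of these data known. Named are members past the threshold, the 4 others of each family with the lowest p, and list genes past it. Adh1, Adh5, Akr7a5, Akr1c6, Akr1c18, Akr1c20, Akr1d1, Cyp2e1, Cat and Nfe2l2 were named after their values were seen. The probe sets of Aldh18a1, Akr1a1 and Akr1b10 were also described after their values were seen.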

Additional observations from a re-analysis of the deposited data

Results flagged for a closer look

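In 84 series of values (42 genes in 2 groups) 3 arrays stood apart from the rest of their group by Dixon's test at the 95% level, where chance flags about 1 in 20. For Adh6a, control replicate 2 was at 0.29, above the other controls at 0.01 to 0.04, and without it the difference of Adh6a was -0.10. For Akr1c18, HFD replicate 2 was at 0.28, above the other HFD arrays at -0.08 to 0.02. For Aldh3b2, HFD replicate 1 was at -0.33, below the other HFD arrays at -0.06 to 0.03. None of these genes passed the threshold.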

How the results depend on the processing

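Aldh3a2 passed in all 22 alternatives (limma adjusted p from 0.000984 to 0.0287). Akr1c19 passed in 21 and not in an unmoderated test (adjusted p = 0.0596), and Aldh2 in 19, failing in the unmoderated test (adjusted p = 0.0555), at an adjusted p under 0.01, and with the probe set that varied most within groups. These 3 genes passed without any 1 array. Aldh3a2 and Akr1c19 are read by 1 probe set each, so settings that choose or average probe sets could not change their differences. The settings with a stricter threshold or a fold limit only reread the main fit. The members higher in HFD numbered 2 in the main analysis, 4 with every probe set on its own (4% of all probe sets passed) or with array weights (6.68% of all genes), 1 in the unmoderated test, at an adjusted p under 0.01 and with the probe set that varied most within groups, and 2 to 3 when 1 array was left out. The members lower in HFD numbered 1, with 2 after a further quantile normalization (6.38% of all genes) or with probe sets averaged (5.17%). They numbered 0 in the unmoderated test (2.09%) and 1 without any 1 array. In the main limma fit 8 of the 42 members were lower at an unadjusted p under 0.05, against 1538 of the 17514 genes. Over all genes, of which 5.24% passed in the main analysis, the count was 1170 with array weights, 1117 after a further quantile normalization, 366 in the unmoderated test, 245 at an adjusted p under 0.01, 596 at a change of at least 1.5-fold, 538 with the probe set that varied most within groups and 385 to 996 when 1 array was left out (385 without control replicate 2, 474 without control replicate 3, 568 without control replicate 4 and 475 without HFD replicate 3). Signs turned for 3 named genes whose difference in the main analysis was near 0, and also for some members given by range, such as Aldh18a1 and Akr1b10 with probe sets averaged. Adh5 was at 0.024 with probe sets averaged and at 0.034 without HFD replicates 3 and 5, against -0.018. Akr7a5 was at -0.025 with array weights, at -0.067 without HFD replicates 3 and 5, and from -0.15 to 0.10 when 1 array was left out. With its probe sets averaged Akr7a5 was at 0.22. Akr1d1 was from -0.055 to 0.36 when 1 array was left out. Scaling did not move the median of all genes (-0.02) by over 0.1. The choice of the probe set within groups and the omission of HFD replicates 3 and 5 were added after seeing the data. No paired analysis was possible because the labels carry no replicate numbers. With 4 and 5 arrays, changes of 0.5 were often missed in simulated data, and smaller changes were not simulated.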

Other observations

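The 2 probe sets that the annotation gives to both Aldh3b2 and Aldh3b3 had differences of -0.01 ± 0.10 and -0.01 ± 0.09 (limma over all 41782 probe sets, adjusted p = 0.988 and 0.977). Without HFD replicates 3 and 5, Akr1d1 differed by 0.53 ± 0.16, which did not pass (limma adjusted p = 0.128).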
